A study of Mus musculus with 9 samples.

Results

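The genes described here encode the proteins of the cytosolic ribosome, the particle that translates messenger RNA in every cell. They were chosen by symbol alone: Rpl or Rps followed by digits and at most a short suffix, together with Rplp1, Rplp2 and Rpsa, and without the Rps6k kinases. The rule found 80 of the 22637 gene symbols in the count tables, 49 of the large subunit (Rpl) and 31 of the small subunit (Rps and Rpsa). Of these, 79 were among the 17315 genes with enough counts to be tested, and Rpl39l was not. Rplp0 is present only under its older symbol Arbp, which the rule does not take, so it is reported beside the 80 and not counted among them. The rule itself uses no measured value.

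Whole-kidney messenger RNA was counted in 9 libraries from mice of strain 129X1/SvJ at 9 weeks of age. There were 3 libraries from wild-type mice without treatment (WT), 3 from Col4a3 -/- mice treated with PBS (KO_PBS) and 3 from Col4a3 -/- mice treated with antimiR-21 (KO_antimiR21). Col4a3 encodes a chain of type IV collagen of the glomerular basement membrane, its loss is a mouse model of Alport kidney disease, and antimiR-21 is an inhibitor of the microRNA miR-21. Both knockout groups carry the same deletion and were treated, whereas WT mice were not, so genotype was compared together with treatment. Each deposited name carries a number of its own, whose meaning is not stated, and no label says that each library came from a separate animal. The p-values therefore reflect the spread among these libraries, part of which may be technical.

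Depth was similar, with 26448275 to 31786624 expected counts per library. Col4a3 was lower in KO_PBS than in WT by 2.25 ± 0.33 on the log2 scale (mean 66.3 against 315 CPM, counts scaled to library size; SE; edgeR adjusted p = 0.0025). Every knockout library lay below every WT library for this gene. Defining kidney transcripts were present in all 9 libraries, for example Slc34a1 at 493 to 3974 CPM and Umod at 1591 to 4654 CPM. Y-linked transcripts marked 7 libraries as male, and WT 1 and WT 3, at 0.928 and 1.49 CPM in sum, as female. The deposited names mark the same WT libraries F and WT 2 M, and give no such letter for the knockout libraries. Every knockout library was male by these transcripts, so genotype was also compared in part together with sex. A code in the deposited names, of unstated meaning, was L4 in WT 1, 2 and 3 and in KO_PBS 1 and 2, and L5 in the other 4 libraries.

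Each ribosome is built from a small subunit, which holds the messenger RNA and reads its codons, and a large subunit, which joins the amino acids. Nearly every ribosomal protein is present as a single copy in each ribosome, and an exception is the acidic stalk of the large subunit, which recruits the factors that use GTP. The messenger RNAs of these proteins mostly begin with a terminal oligopyrimidine (TOP) tract, a cytidine followed by a run of C and T bases, through which mTOR signalling and the protein Larp1 set how strongly they are translated. Their genes are transcribed at a high rate in growing and dividing cells, and Myc raises the output of the whole ribosome assembly line.

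Annotated starts of these genes were searched for such a run. Windows of 30 bases from RefSeq on build GRCm38.p6, 15 bases before the start and 15 from it, are given for members on which the results turn. Capitals mark a run of at least 5 C and T bases, counted from its first C, where that C lies within 10 bases of the start.
Rpl12 (chr2:32961697-32961726, + strand): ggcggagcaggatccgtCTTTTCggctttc
Rpl10a (chr17:28328456-28328485, + strand): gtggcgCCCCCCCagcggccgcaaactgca
Rpl39 (chrX:37085208-37085237, - strand): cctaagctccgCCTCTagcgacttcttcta
Rps6 (chr4:86857353-86857382, - strand): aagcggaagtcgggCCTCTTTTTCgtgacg
Rpl22l1 (chr3:28805493-28805522, + strand): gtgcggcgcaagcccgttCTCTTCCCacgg
Rpl7l1 (chr17:46782642-46782671, - strand): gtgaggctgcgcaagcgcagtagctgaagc
Rpsa (chr9:120127751-120127780, + strand): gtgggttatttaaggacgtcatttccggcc
The first 3 had the lowest p-values in KO_PBS against WT, Rps6 is the member that S6 kinases phosphorylate, Rpl22l1 and Rpl7l1 are paralogs of Rpl22 and Rpl7, and Rpsa is the member with the most counts. Rpl7l1 and Rpsa have no such run in their windows. The run of Rpl10a lies wholly before the annotated start shown, the upstream one of its 2 listed starts. It is thus outside a transcript that begins there. The marked run of Rpl39 ends on the first transcribed base. A further run in the Rpl39 window, left in lower case, begins with a C inside the transcript and also meets the rule for a run. A promoter was found for 60 of the 80 members, and 37 of these (61.7%) had the run at 1 or more of their listed starts. Over all 27025 symbols with a promoter, 32.6% had one, and over the 9244 tested genes with a promoter 35.0%. Runs were read only on the strand that has the sequence of the transcript, and a match describes these letters, not a site of regulation.

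Taken as a sum, the members' transcripts made up 2.31%, 2.40% and 3.25% of all expected counts in WT 1, 2 and 3. They made up 5.22%, 3.34% and 3.21% in KO_PBS 1, 2 and 3, and 3.77%, 3.43% and 2.76% in KO_antimiR21 1, 2 and 3. The highest WT library lay above the lowest KO_PBS library and above the lowest KO_antimiR21 library, so neither knockout group was separate from WT. On the scale of CPM after TMM scaling, the sum was 29236 ± 5073 in WT, 35441 ± 8698 in KO_PBS and 33076 ± 4959 in KO_antimiR21 (mean ± SD, n = 3 each). In whole tissue, fewer cells of a type and less RNA per cell cannot be told apart.

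**Figure D1:**
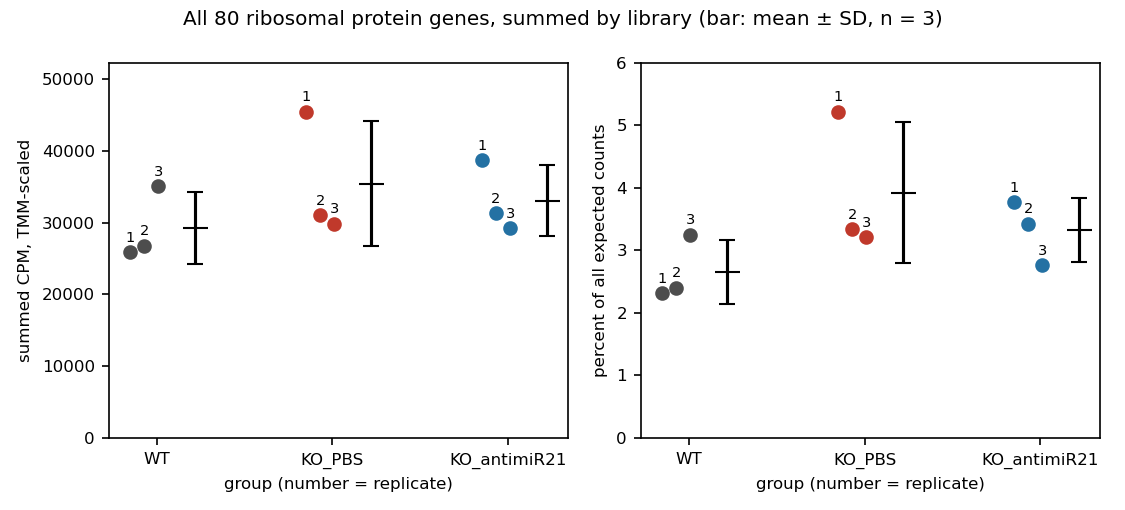
Summed level of the 80 ribosomal protein genes in each of the 9 libraries, as CPM after TMM scaling (left) and as percent of all expected counts (right); dots are libraries with their replicate numbers, bars are mean ± SD (n = 3). KO_PBS 1 stands at 45462 CPM and 5.22%, above the other 8 libraries on both scales, and 1 library stands apart at the top of each group in CPM.

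In each group 1 library was the highest for most members. WT 3 was the highest WT library for 75 of the 79 tested members, against 37.8% of all tested genes. KO_PBS 1 was the highest of its group for 77 of 79 (39.0% of all genes), and KO_antimiR21 1 for 70 of 79 (36.7%). The exceptions in WT were Rpl22l1, Rpl3l, Rpl7l1 and Rps27l, all of them paralogs of a more abundant member. The exceptions in KO_PBS were Rpl3l and Rpl7l1. The pattern was in part shared by the 75 genes of the mitochondrial ribosome, a separate protein set. WT 3 was the highest of its group for 57.3% of them and KO_antimiR21 1 for 76.0%. KO_PBS 1 was the highest for 42.7% of them, beside 40.0% for KO_PBS 2.

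Measured from the mean of the 3 WT libraries, the median member stood at -0.17, -0.11 and 0.29 in WT 1, 2 and 3 on the log2 scale. It stood at 0.64, 0.08 and 0.00 in KO_PBS 1, 2 and 3, and at 0.43, 0.09 and 0.01 in KO_antimiR21 1, 2 and 3. WT 3 was therefore above KO_PBS 2 and 3 and above KO_antimiR21 2 and 3. The median within-group SD of a member was 0.30 on this scale, and the median distance between its lowest and highest group mean was 0.25. That distance was over 2 SD for 5 members, Rpl3, Rps7, Rps4x, Rpl10a and Rpl12.

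**Figure D2:**
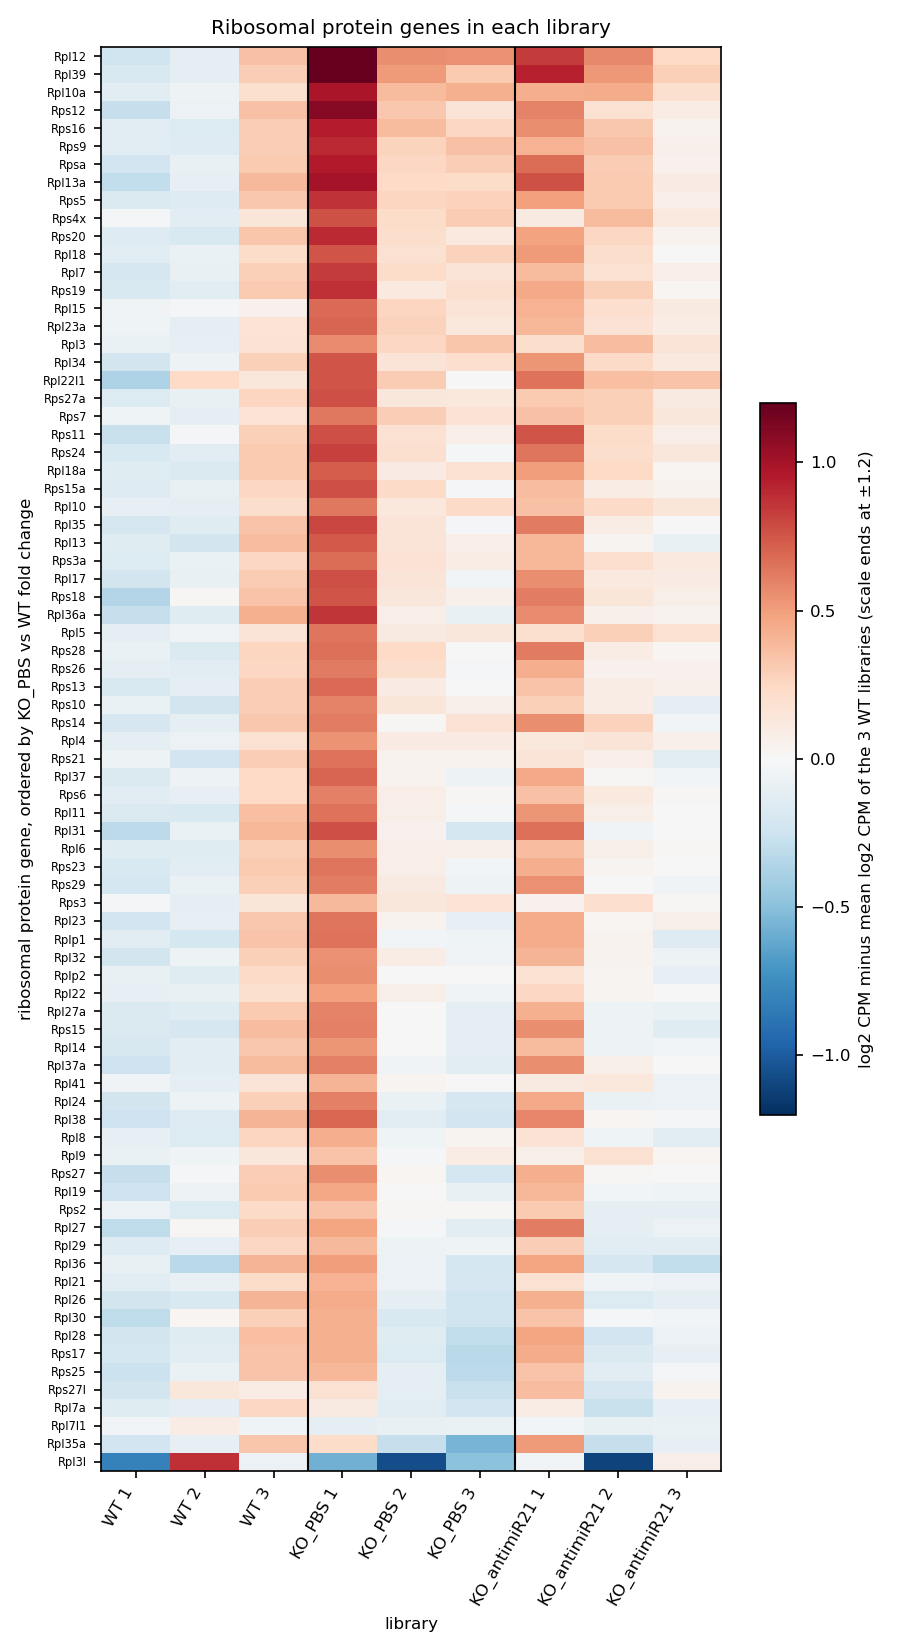
Level of each of the 79 tested members (rows, ordered by fold change in KO_PBS against WT) in each library (columns), as log2 CPM minus the mean log2 CPM of the WT libraries; colours end at ±1.2. WT 3, KO_PBS 1 and KO_antimiR21 1 form darker columns that run through nearly all rows, with medians of 0.29, 0.64 and 0.43.

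KO_PBS was compared with WT to ask how the knockout kidney differed from the wild-type kidney. With edgeR, 0 members were higher and 0 lower at an adjusted p under 0.05, where 14.6% of all tested genes were higher and 9.85% lower. Before adjustment, 8 members were higher at p under 0.05 and 0 lower, again below the background of 19.7% higher and 17.2% lower. The fitted values leaned upward all the same: 73 of 79 members were above 0 and their median log2 fold change was 0.26, beside -0.03 over all tested genes. Values ran from -0.85 (Rpl3l) to 0.86 (Rpl12), with quartiles of 0.14 and 0.37. The small subunit had a median of 0.31 (31 members) and the large subunit 0.21 (48 members).

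Other tools and scalings called a few members higher. DESeq2 called 4 (Rpl10a, Rpl12, Rpl3 and Rpl39), where it called 16.9% of all genes higher and 13.5% lower. Limma on the deposited log2 matrix called Rpl10a and Rpl12, where 14.8% of all genes were higher and 9.79% lower. With upper-quartile scaling edgeR called the same 2 members (15.5% higher and 8.35% lower over all genes), and with library size scaling it called 11 (21.7% and 5.22%). None of these 4 alternatives called a member lower. Without KO_PBS 1 the median was 0.04 with 49 members above 0, and 24 members changed sign. Across the members, 95% intervals held 0 for 71 of 79 and lay inside a change of 1 log2 unit either way for 70, so larger changes were outside the interval for most.

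Rpl12 and Rpl10a came nearest to the threshold. Rpl12, a protein at the base of the stalk, stood at 208, 228 and 312 CPM in WT 1, 2 and 3, at 639, 362 and 360 CPM in KO_PBS 1, 2 and 3, and at 440, 367 and 289 CPM in KO_antimiR21 1, 2 and 3. All KO_PBS libraries were above all WT libraries, while KO_antimiR21 overlapped both. In KO_PBS against WT its log2 fold change was 0.86 ± 0.28 (SE; 95% interval 0.23 to 1.5; edgeR adjusted p = 0.0522), and 0.53 without KO_PBS 1 (edgeR adjusted p = 0.17).

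Rpl10a, part of the mobile stalk through which spent transfer RNA leaves, stood at 308, 322 and 386 CPM in WT, at 666, 439 and 452 CPM in KO_PBS and at 456, 458 and 384 CPM in KO_antimiR21. KO_PBS did not overlap WT. Its log2 fold change was 0.62 ± 0.20 (SE; 95% interval 0.17 to 1.06; edgeR adjusted p = 0.0511), and 0.39 without KO_PBS 1 (edgeR adjusted p = 0.157).

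Rpl39, a very small protein that lines the tunnel through which the new chain leaves, stood at 143, 151 and 200 CPM in WT and at 374, 232 and 202 CPM in KO_PBS. In KO_antimiR21 it stood at 311, 235 and 199 CPM. KO_PBS 3 lay just above WT 3 without overlap, and the log2 fold change was 0.71 ± 0.27 (edgeR adjusted p = 0.0879). Rpl3, which lies close to the site of peptide bond formation, had 0.38 ± 0.16 (edgeR adjusted p = 0.112).

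On the small subunit, Rps4x, encoded on the X chromosome, stood at 503, 461 and 559 CPM in WT and at 857, 591 and 625 CPM in KO_PBS. These groups did not overlap, and the log2 fold change was 0.45 ± 0.19 (edgeR adjusted p = 0.117). Rps7 did not overlap either (0.37 ± 0.16; edgeR adjusted p = 0.129). Rps9, at the channel where messenger RNA enters, overlapped WT and had 0.52 ± 0.22 (edgeR adjusted p = 0.122).

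In all, 7 members had KO_PBS wholly above WT (Rpl10a, Rpl12, Rpl15, Rpl3, Rpl39, Rps4x and Rps7) and 1 wholly below (Rpl7l1). Among all tested genes these shares were 22.6% and 20.5%, larger than the members' own.

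**Figure D3:**
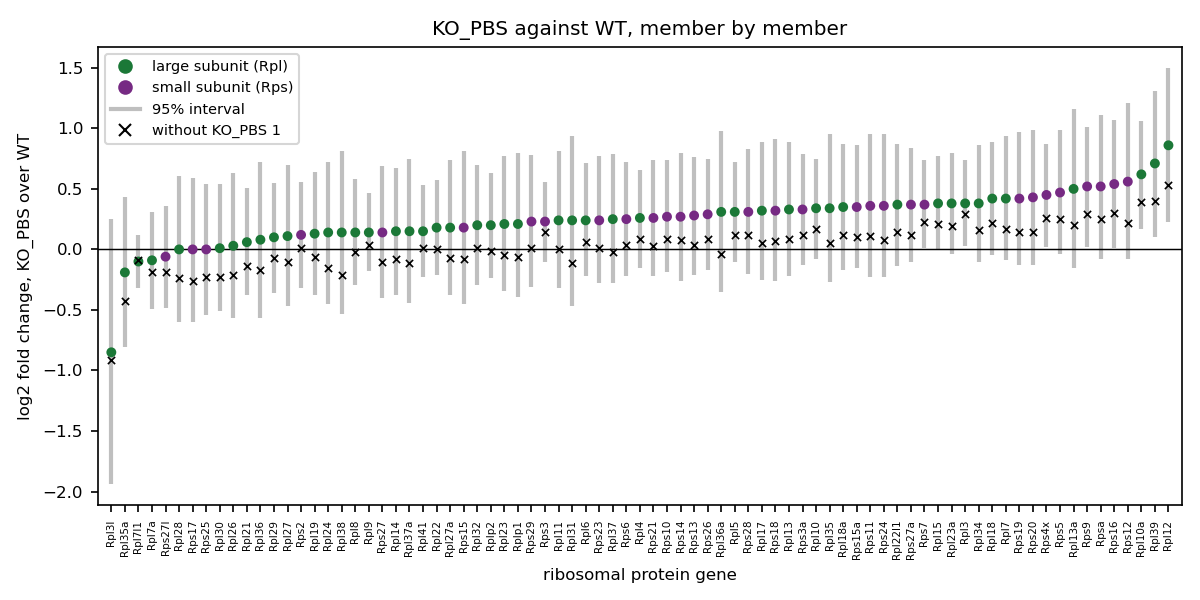
Log2 fold change of KO_PBS over WT for the 79 tested members (dots, green for Rpl and purple for Rps), with 95% intervals (grey bars) and the same estimate without KO_PBS 1 (crosses). Nearly every cross lies below its dot, the median goes from 0.26 to 0.04, and the grey bars of 71 members cross 0.

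Rplp0, the scaffold of the acidic stalk and listed as Arbp, was the stalk protein that passed the test. It stood at 655, 663 and 757 CPM in WT, at 1257, 883 and 993 CPM in KO_PBS and at 812, 925 and 751 CPM in KO_antimiR21. KO_PBS and WT did not overlap, and Arbp rose by 0.59 ± 0.18 on the log2 scale (95% interval 0.18 to 1.0; edgeR adjusted p = 0.0427). The call was kept in 5 of 19 alternatives. Without KO_PBS 1 the fold change of Arbp was 0.44 (edgeR adjusted p = 0.13), and it was also lost without any 1 of the 3 WT libraries, KO_PBS 2, KO_PBS 3, KO_antimiR21 1 or KO_antimiR21 3.

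The other stalk proteins, Rplp1 and Rplp2, had log2 fold changes of 0.21 ± 0.26 and 0.20 ± 0.19 (edgeR adjusted p = 0.619 and 0.508). Among ribosomal proteins whose symbols fall outside the rule, Gnb2l1 (Rack1, a scaffold on the small subunit) had 0.54 ± 0.18 with no overlap (edgeR adjusted p = 0.0586). Fau and Rpl36al had 0.05 and -0.23.

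KO_antimiR21 was compared with KO_PBS to ask what the inhibitor changed in knockout kidney. No ribosomal protein gene was called: edgeR gave 0 members higher and 0 lower, where 0.0% of all tested genes were called in either direction. At an unadjusted p under 0.05, 0 members were higher and 0 lower, beside 3.57% and 3.38% of all genes. DESeq2 also called 0 members, where it called 0.0347% of all genes higher and 0.0693% lower, and limma called 0 members and 0.0% of all genes. The median member was at -0.09, with 15 of 79 above 0, and all genes at -0.01. In no member were the 2 groups free of overlap (3.83% of all genes higher, 6.85% lower).

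All 79 intervals held 0, and 78 lay inside 1 log2 unit either way, the exception being the scarce Rpl3l. The lowest p-values belonged to Rpl10a (-0.26 ± 0.20) and Rps4x (-0.24 ± 0.19), with edgeR adjusted p = 0.805 and 0.809. Rpl35a, a large subunit protein that was highest in KO_antimiR21 1, had 0.26 ± 0.28. Arbp had -0.33 ± 0.18 (edgeR adjusted p = 0.722). The sign of the median changed without either of 2 libraries: without KO_PBS 1 it was 0.12, with 72 of 79 members above 0, and without KO_antimiR21 3 it was 0.01, with 45 above 0. Within the L5 libraries there is 1 KO_PBS library, and with the code as a term of the fit the median was 0.16.

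KO_antimiR21 against WT used the same libraries as the preceding comparisons and is set beside them. EdgeR called 0 members higher and 0 lower, where 6.72% of all genes were higher and 0.427% lower. At an unadjusted p under 0.05, 0 members were higher and 0 lower (13.4% and 6.78% of all genes). DESeq2 called 0 members, where 9.34% of all genes were higher and 2.28% lower, and limma 0 members, where 6.99% were higher and 0.341% lower. The median was 0.17, with 75 of 79 above 0, and all genes at -0.04. Without KO_antimiR21 1 it was 0.03, with 47 above 0. All 3 KO_antimiR21 libraries were above all WT libraries for Rpl15, Rpl22l1 and Rpl5 (14.6% of all genes), and for 0 members the reverse held (9.83%). Rpl39 had the lowest p, at 0.59 ± 0.27 (edgeR adjusted p = 0.261).

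Several members have tasks of their own. Rpsa, which had the most expected counts of all members and is also a laminin receptor, stood at 616, 678 and 897 CPM in WT, at 1397, 856 and 883 CPM in KO_PBS and at 1149, 890.2 and 745 CPM in KO_antimiR21. WT 3 was above KO_PBS 2 and 3, so the groups overlapped, and the log2 fold change of KO_PBS over WT was 0.52 ± 0.26 (edgeR adjusted p = 0.19). Rps6, the substrate of S6 kinases, had 0.25 ± 0.21 (edgeR adjusted p = 0.431). Rps19, the gene most often mutated in Diamond-Blackfan anaemia, had 0.42 ± 0.24 (edgeR adjusted p = 0.246).

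Rpl5 and Rpl11 travel with a small ribosomal RNA and can bind Mdm2, the protein that keeps p53 low. Rpl5 stood at 502, 524 and 603 CPM in WT, at 843, 582 and 595 CPM in KO_PBS and at 618, 660.3 and 613 CPM in KO_antimiR21. Its log2 fold change was 0.31 ± 0.18 in KO_PBS against WT (edgeR adjusted p = 0.252), and KO_antimiR21 stood above WT without overlap (0.22 ± 0.18; edgeR adjusted p = 0.577). Rpl11 had 0.24 ± 0.25 in KO_PBS (edgeR adjusted p = 0.537). Beside them, Trp53, which encodes p53, rose by 0.99 ± 0.15 (edgeR adjusted p = 0.0026), and its target Cdkn1a rose by 1.74 ± 0.48 (edgeR adjusted p = 0.0284). Mdm2 had 0.05 ± 0.12.

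Next to Rpsa, the members with the most counts were Rpl4, of the exit tunnel, and Rps2, of the messenger RNA entry channel. Their log2 fold changes in KO_PBS against WT were 0.26 ± 0.18 and 0.12 ± 0.19 (edgeR adjusted p = 0.338 and 0.701).

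A few members are copies of another member and were compared with it as CPM per kilobase of coding length. RSEM shares reads among near-identical copies, and ribosomal protein genes have many processed pseudogenes, so these ratios and the level of any single member are uncertain. Rpl22l1 stood at 26.5%, 40.0% and 30.9% of Rpl22 in WT 1, 2 and 3, at 38.5%, 37.8% and 33.3% in KO_PBS, and at 42.4%, 40.1% and 40.2% in KO_antimiR21. All KO_antimiR21 libraries were above all WT libraries by a narrow margin, and KO_PBS overlapped WT. In CPM, Rpl22l1 in KO_antimiR21 had a log2 fold change of 0.43 ± 0.22 over WT (edgeR adjusted p = 0.325).

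Rpl7l1, which acts in assembly of the large subunit, stood at 18.3%, 18.5% and 12.9% of Rpl7 in WT and at 8.42%, 13.2% and 13.9% in KO_PBS. WT 3 was below KO_PBS 2 and 3. Its own level was the steadiest of all members, with a within-group SD of 0.05 on the log2 scale: 83.1, 90.7 and 81.9 CPM in WT, and 78.5, 79.8 and 80.5 CPM in KO_PBS. KO_PBS lay wholly below WT, with a log2 fold change of -0.10 ± 0.10 (edgeR adjusted p = 0.515).

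Rps27l, a target of p53, stood at 25.0 ± 3.19%, 21.9 ± 2.44% and 23.6 ± 2.07% of Rps27 in WT, KO_PBS and KO_antimiR21 (mean ± SD, n = 3), with overlapping libraries. Rpl3l, the form of striated muscle, stood at 0.243 ± 0.154%, 0.102 ± 0.0175% and 0.154 ± 0.0675% of Rpl3. It rested on 16 to 54 expected counts per library and had the widest interval, -1.94 to 0.25 in KO_PBS against WT. Rpl39l, known from testis, had 0 to 3 expected counts and was at 0 in 6 libraries, which allows up to 0.0929 to 0.127 CPM there (3 counts, counting error only).

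**Figure D4:**
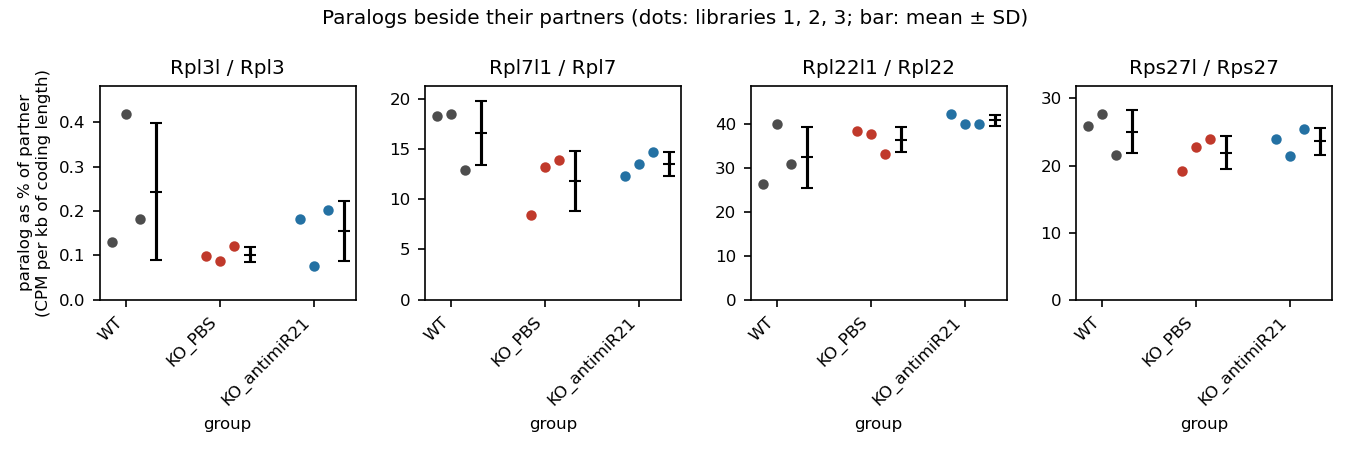
Level of 4 paralogs as percent of the partner, both as CPM per kilobase of coding length, in each library (dots in the order of replicates 1, 2 and 3) with mean ± SD (n = 3). Rpl22l1 is at 26.5% to 42.4% of Rpl22, Rps27l at 19.2% to 27.7% of Rps27, Rpl7l1 at 8.42% to 18.5% of Rpl7 and Rpl3l at 0.077% to 0.419% of Rpl3.

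Ribosomal proteins are short, and the libraries in which they stood high were set beside coding length, a comparison chosen after the values were seen. The members' median coding length was 456 bases, beside 1419 bases over the tested genes with a length (84.3% of them). Leaving out the 4 tested paralogs, 75 members were divided by that median. In WT 3 the shorter members stood 0.32 above their group mean and the longer members 0.26 (medians, log2 scale). In KO_PBS 1 these values were 0.43 and 0.36, and in KO_antimiR21 1 they were 0.31 and 0.19.

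Other short genes leaned the same way in those libraries, but less than the shorter members. In KO_antimiR21 1 they leaned as far as the longer members. The 857 other tested genes below the members' median length stood 0.11 above the group mean in WT 3, 0.10 in KO_PBS 1 and 0.19 in KO_antimiR21 1. The 13668 longer genes had medians of 0.00, -0.02 and -0.02. As a description over 75 members that share their libraries, Spearman's rho between length and distance from the group mean was -0.35 in WT 3, -0.44 in KO_PBS 1 and -0.48 in KO_antimiR21 1. In KO_PBS 3 it was 0.63. The fold changes of KO_PBS over WT leaned the other way, with a rho of 0.26 and medians of 0.21 for the shorter and 0.33 for the longer members. The other short genes had a median of -0.12 there and the other longer genes -0.01. In KO_antimiR21 against KO_PBS the shorter members were at -0.07 and the longer at -0.12, with a rho of -0.32.

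**Figure D5:**
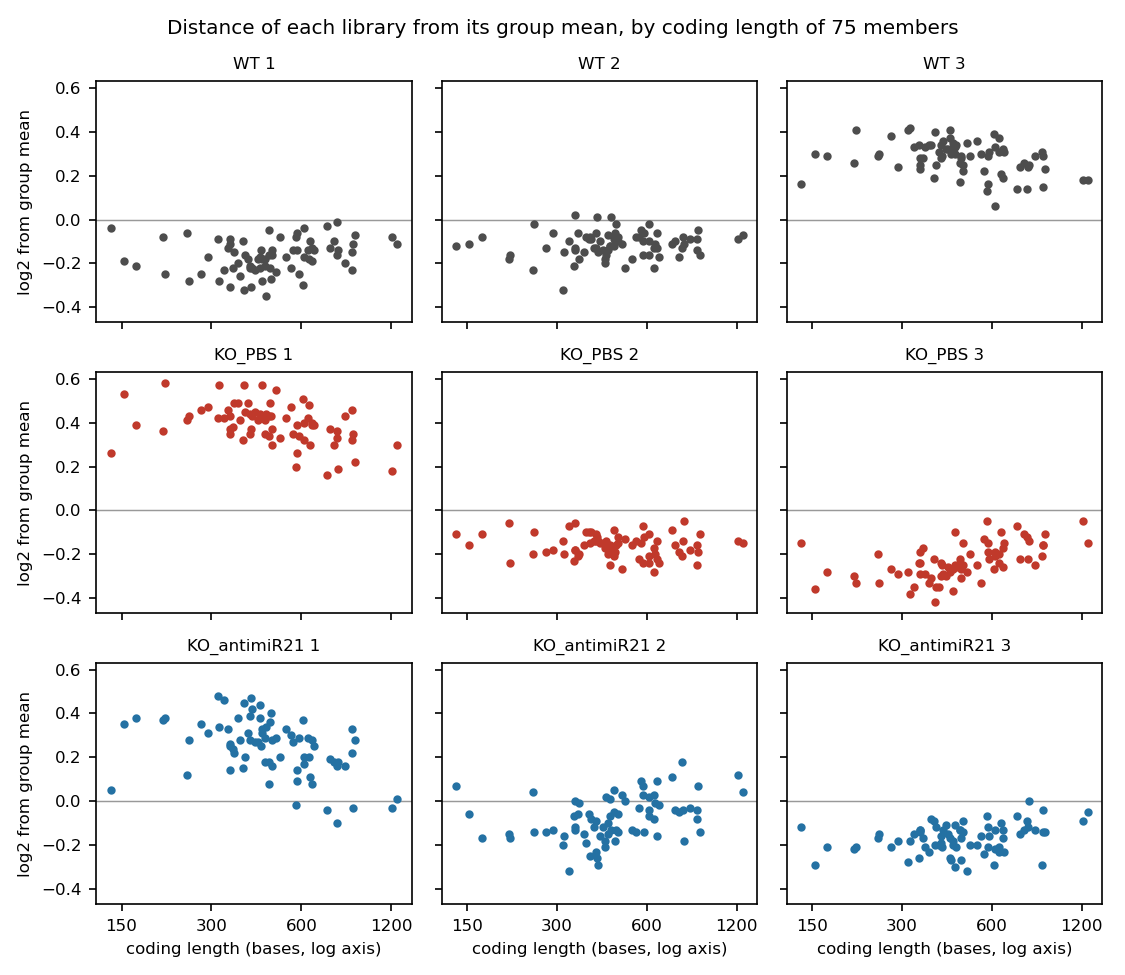
Distance of each library from its group mean (log2 CPM) against coding length (bases, log axis) for 75 members, 1 panel per library. In WT 3, KO_PBS 1 and KO_antimiR21 1 most members lie above 0 and the shorter ones higher, while in the other 6 libraries most lie below 0.

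Among genes that drive and serve ribosome production, some were called in KO_PBS against WT, where 14.6% of all tested genes were called higher and 9.85% lower. Myc, a transcription factor that promotes ribosome production, stood at 4.81, 6.34 and 5.83 CPM in WT and at 56.7, 48.6 and 29.8 CPM in KO_PBS. In KO_antimiR21 it stood at 23.7, 28.0 and 17.0 CPM. The 3 groups did not overlap, and Myc rose by 2.99 ± 0.28 in KO_PBS against WT (edgeR adjusted p = 0.00135) and by 2.02 ± 0.28 in KO_antimiR21 against WT (edgeR adjusted p = 0.00459). Between the knockout groups the value was -0.97 ± 0.26 (edgeR adjusted p = 0.707).

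Of 13 tested drivers in all, 2 rose in KO_PBS against WT (Myc and the kinase gene Akt1, 0.74 ± 0.13, edgeR adjusted p = 0.00527), 0 fell, and the median was -0.03. A count of 2 in 13 is close to the 14.6% of all genes. The mTOR gene, listed as Frap1, had -0.73 ± 0.30 (edgeR adjusted p = 0.108). Of 10 kinases with S6 kinase symbols, Rps6ka4 rose (0.57 ± 0.14, edgeR adjusted p = 0.0211) and 0 fell.

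Translation elongation factors and other genes of TOP messenger RNAs gave 5 of 22 that rose and 1 that fell, with a median of 0.16, beside 14.6% and 9.85% of all genes. Npm1, a nucleolar chaperone, rose by 0.67 ± 0.16 (edgeR adjusted p = 0.0156), Pabpc1, which binds poly(A) tails, by 0.57 ± 0.15 (edgeR adjusted p = 0.0243), and Vim, the intermediate filament of mesenchymal cells, by 2.26 ± 0.32 (edgeR adjusted p = 0.00228). Hnrnpa1 and Impdh2 were the others that rose. Ahcy, an enzyme of methionine metabolism, fell by 1.5 ± 0.35 (edgeR adjusted p = 0.0167).

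Among 31 initiation factor genes and their regulators, Eif4a1, Eif4ebp1 and Eif6 rose and Eif4a2 fell. Eif4ebp1, a repressor of cap-dependent initiation, rose by 1.26 ± 0.19 (edgeR adjusted p = 0.00291), and Eif6, which keeps the subunits apart until the large one is mature, by 0.90 ± 0.21 (edgeR adjusted p = 0.0151). Of 75 ribosome assembly genes 6 rose (Nol5, Npm1, Rrp1b, Tsr1, Noc4l and Sdad1) and 0 fell, with a median of 0.17. For the initiation and the assembly genes alike, the share that rose was below the 14.6% of all genes. Of 17 genes of RNA polymerase I, which makes ribosomal RNA, 0 rose and 0 fell, with a median of 0.05.

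In KO_antimiR21 against KO_PBS, edgeR called 0 genes in each of these lists. In KO_antimiR21 against WT, Myc, Trp53, Vim and Eif4ebp1 rose and 0 genes of these lists fell. Without KO_PBS 1, 2 of the 22 TOP genes, 1 of the 31 initiation genes and 1 of the 75 assembly genes rose in KO_PBS against WT. With sex as a term, 0 genes of these lists were called, and Col4a3 itself had edgeR adjusted p = 0.0555. All knockout libraries are male, so that fit sets the knockout groups against WT 2 alone. The male libraries only leave the same WT library, and there Col4a3 was at -1.93 in KO_PBS against WT. Several fold changes nonetheless stayed near their first values: with sex as a term Col4a3 was at -1.95, Myc at 2.83, Vim at 2.09, Trp53 at 1.0 and Akt1 at 0.71 in KO_PBS against WT.

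Besides the 2 alternatives that rest on WT 2 alone, the calls of Myc, Akt1, Trp53, Vim and Eif4ebp1 in KO_PBS against WT held in the other 17 alternatives. Npm1 lost its call also without WT 1, Eif6 without KO_PBS 1 and Ahcy without WT 3. Pabpc1 and Cdkn1a lost theirs without WT 1, WT 3, KO_PBS 1 or KO_PBS 2, and Rps6ka4 without WT 1, WT 2, KO_PBS 1 or KO_PBS 2. The other calls in these lists held less often: Noc4l in 12 of 19 alternatives, Rrp1b in 9, Impdh2, Tsr1 and Sdad1 in 8, Hnrnpa1 and Nol5 in 7, Eif4a1 in 6 and Eif4a2 in 5. These 9 were all lost without KO_PBS 1. In KO_antimiR21 against WT, Myc and Vim lost their calls also with the library code as a term, and held in 16 of 19. All WT libraries are L4 and all KO_antimiR21 libraries L5, so that fit tells code from group only through KO_PBS. In KO_antimiR21 against WT, Trp53 was called in 10 of 19 alternatives and not without WT 1, WT 2, KO_antimiR21 1 or KO_antimiR21 2. Eif4ebp1 was called there in 8 of 19 and not without any 1 of the 3 WT libraries, KO_PBS 2, KO_antimiR21 1 or KO_antimiR21 2.

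The ribosome of the mitochondrion has its own protein set, encoded by other nuclear genes, with the same task inside that organelle. Of 75 mitochondrial ribosomal protein genes 22 fell in KO_PBS against WT and 0 rose, where 9.85% of all genes fell and 14.6% rose. Their median was -0.43, and 56 had KO_PBS wholly below WT (20.5% of all genes). Mrpl46 stood at 40.1, 37.9 and 45.2 CPM in WT and at 24.5, 25.9 and 25.7 CPM in KO_PBS, and fell by 0.70 ± 0.15 (edgeR adjusted p = 0.0121). In KO_antimiR21 the median was 0.22 over KO_PBS and -0.19 against WT, but its libraries differed. Relative to the WT mean, the median gene was at 0.04 for KO_antimiR21 1, -0.47 for KO_antimiR21 2 and -0.12 for KO_antimiR21 3. The KO_PBS libraries ranged from -0.42 to -0.38 on that scale, so KO_antimiR21 2 was below all of them. KO_antimiR21 2 was the lowest library of its group for 93.3% of these genes. The number of calls in KO_PBS against WT rested on each library. Without KO_PBS 1 a single gene fell, at an almost unchanged median of -0.42. Leaving out any other WT or KO_PBS library left 4 to 7. The difference between the cytosolic and mitochondrial sets was not tested.

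Many of the cell type marker lists moved with the same groups, though not all. The 9 macrophage markers summed to 172 to 209.8 CPM in WT, 795 to 1058 CPM in KO_PBS and 384 to 816 CPM in KO_antimiR21, and 8 of 9 rose in KO_PBS against WT. The 8 T cell markers all rose, from sums of 4.94 to 6.23 CPM to 19.1 to 23.8 CPM, with Cd3e at 0 in 1 library. All 5 markers of proliferating cells rose. Of 6 fibroblast markers 5 rose (Col1a1, Col1a2, Col3a1, Pdgfrb and Dcn), with sums of 269 to 330.1 CPM in WT, 2005 to 2538 CPM in KO_PBS and 562 to 1242 CPM in KO_antimiR21. Of 3 neutrophil markers 2 rose (S100a9 and Csf3r), and of 3 B cell markers 0 were called. Leaving out any 1 library kept 8 macrophage calls, 5 calls of proliferating cells and 5 or 6 fibroblast calls, and gave 4 to 8 T cell calls, the fewest without KO_PBS 2. A single neutrophil call was left without WT 1, WT 3 or KO_PBS 3.

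Of 8 proximal tubule markers 5 fell in KO_PBS, and their sum was 18950 to 38350 CPM in WT and 1721 to 8997 CPM in KO_PBS. The 5 calls became 2 without WT 1, KO_PBS 1 or KO_PBS 2, and 3 without WT 3. Of 6 markers of distal tubule and collecting duct 4 fell (2 without KO_PBS 1), and of 4 markers of the thick ascending limb 2 fell. With sex as a term, 0 of the markers named above were called. The macrophage median went from 3.52 to 3.06 and the fibroblast median from 2.3 to 2.44 in that fit. Of 5 podocyte markers 0 were called in KO_PBS against WT (median 0.04). Of 5 endothelial markers 1 fell (median -0.56), and of 2 red blood cell markers 1 fell (median -2.78). In KO_antimiR21 against KO_PBS the red blood cell median was 3.91, with 0 called.

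KO_PBS 1, the library with the highest ribosomal protein level, had the highest macrophage sum (1058 CPM) and the lowest proximal tubule sum (1721 CPM). WT 3 had the highest macrophage sum of its group, at 209.8 CPM beside 208 CPM in WT 2, and the lowest proximal tubule sum, at 18950 CPM beside 20780 CPM in WT 1. KO_antimiR21 1 had neither: KO_antimiR21 2 was higher in macrophage markers (816 against 676 CPM) and lower in proximal tubule markers (5656 against 17370 CPM). Sums weigh abundant markers most, and the median marker (log2 over the WT mean) ranked the WT libraries otherwise. For macrophages it was highest in WT 2 (0.36, beside -0.01 in WT 3). For proximal tubule it was lowest in WT 2 (-0.32, beside -0.21 in WT 3). In KO_PBS 1, 2 and 3 the macrophage medians were 3.3, 3.28 and 3.32, and KO_PBS 1 had the lowest proximal tubule median (-2.81). The part of cell composition in the ribosomal protein values was not tested.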

How the data were processed

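Per the labels' protocols, total RNA came from a miREASY extraction, and TruSeq RNA v2 reagents were used for the libraries. The authors deposited expected counts per gene symbol, and the submitters' processing notes name Bowtie, RSEM, limma and build mm9. Neither versions, annotation nor strand are given in the sources used here. Reads of a gene and of an overlapping or antisense partner cannot be told apart. A deposited log2 matrix equals log2 CPM plus 1 constant per library.

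Expected counts were rounded, filtered with filterByExpr and scaled by TMM. One edgeR 4.0.16 quasi-likelihood fit held all 9 libraries and 3 group means. Two-sided p-values were adjusted by Benjamini-Hochberg over all 17315 tested genes in each comparison. Calls needed an adjusted p under 0.05. Medians over members carry no test. Alternatives used DESeq2 1.42.0, limma 3.58.1 on the deposited matrix, other scalings, no filter, 2-group fits, covariates, a replicate block and leaving out libraries. Scripts ran in R 4.3.3 and in Python 3.11.15 (numpy 2.4.6, pandas 2.3.3, matplotlib 3.10.9). The edgeR script was tested on simulated data, with the spread of each gene capped at the median over genes and no shift shared by a whole library. That setting is milder than these data, so it checks the script and not the calls made here. TMM factors ran from 0.894 to 1.15, and replicates were not copies (chi-square per gene 29.5 to 132).

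The gene set was proposed, and the other lists were chosen, with earlier results of these data known, although the symbol rule uses no values. The named members were, per comparison, the 6 with the lowest p in each direction, the paralogs and their partners, the stalk, Rpsa, Rps6, Rpl5, Rpl11 and Rps19, the 3 with the most counts, and from other lists the 3 genes with the lowest p. The text gives those on which a result turns. Other genes named as examples were chosen after their values were seen. Of the listed symbols, 22 were matched by an older name. Coding lengths came from GENCODE vM21 on GRCm38, by symbol. Promoters came from RefSeq on GRCm38.p6. No mm9 coordinates are given. A few genes are not reported here.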

Additional observations from a re-analysis of the deposited data

How the results depend on the processing

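Of 19 alternatives, 4 changed the number of ribosomal protein genes called in KO_PBS against WT, from 0 to 4 higher with DESeq2, 11 with library size scaling, 2 with upper-quartile scaling and 2 with limma on the deposited matrix. Rpl10a and Rpl12 were called in all 4. Library size scaling moved the median of all genes from -0.03 to 0.25 and that of the members from 0.26 to 0.54. With the library code as a covariate the median in KO_antimiR21 against WT was 0.56 in place of 0.17. In that comparison code and group coincide, with all WT libraries L4 and all KO_antimiR21 libraries L5. The fit tells them apart only through KO_PBS, so the direct contrast cannot be corrected for the code. Leaving out 1 library gave medians of 0.04 to 0.42 in KO_PBS against WT, -0.23 to 0.12 in KO_antimiR21 against KO_PBS and 0.03 to 0.32 in KO_antimiR21 against WT. With sex as a covariate these medians were 0.40, -0.09 and 0.31, and the comparisons with WT then rest on WT 2, the only male WT library. In the male libraries only, an alternative chosen after seeing the data that leaves 1 WT library and assumes it varies like the others, they were 0.43, -0.09 and 0.34. The causes of these shifts were not tested.

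No label says that replicate numbers pair libraries. Distances from the group mean had correlations of -0.367 to 0.438 between same-numbered libraries and of -0.357 to 0.44 between differently numbered ones. With 3 libraries a group these cannot exclude a pairing. With the replicate block the medians were 0.24, -0.08 and 0.15 and 0 members were called in the 3 comparisons. Arbp was not called under the block (edgeR adjusted p = 0.102), and the mitochondrial count went from 22 to 8. Mitochondrial calls also went to 34 with DESeq2, 34 in the 2-group fit, 12 with upper-quartile scaling, 2 with library size scaling, 6 with the library code and 0 with sex. With 3 libraries a group and a median SE of 0.23, single members with changes as small as their median could not be called.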
